A study of Mus musculus with 2 samples.

Results

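The integrin and laminin genes were compared between the circumvallate papillae (CvP), the taste bud-bearing papillae at the back of the mouse tongue, and tongue epithelium without papillae (Epi). The members are the rows of the deposited gene table whose symbol begins with an integrin α or β subunit name or a laminin α, β or γ chain name, which gave 39 of 18498 rows. *Itgb3bp* is 1 of the 39 by its name only, since it encodes a nuclear centromere protein, and it was set apart (RPKM 0.70 in the CvP against 0.38 in the Epi). The other 38 rows are 27 integrin and 11 laminin genes. Both tissues came from male C57BL/6J mice of 12 to 30 weeks on normal chow, with no genetic change or treatment, and RNA of at least 20 mice was pooled into 1 poly(A) library for each tissue. There was thus no replicate, and every statement below compares 2 libraries. Values are RPKM (reads per kilobase of exon model, scaled to the mapped reads of the library), a level per length, so that genes can also be compared within a library.

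Laminins are secreted trimers of an α, a β and a γ chain that form the sheet-like network of basement membranes. Integrins are receptors of an α and a β subunit that span the cell membrane and tie the cell to this matrix or to other cells. In stratified epithelium such as that of the tongue, basal keratinocytes bind laminin with the α3 and β3 chains through integrin α6β4 in hemidesmosomes, where the receptor is coupled to keratin filaments. Integrins with the β1 subunit bind laminin, collagen or fibronectin at actin-linked adhesions, those with αv bind matrix proteins with an RGD motif and latent TGF-β, and those with β2 or β7 belong to leukocytes.

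The libraries held about 28373653 mapped reads in the CvP against 27910118 in the Epi, as read from the worth of 1 read in the shortest rows. All 7 taste cell markers examined (*Trpm5*, *Gnat3*, *Plcb2*, *Entpd2*, *Pkd2l1*, *Pkd1l3* and *Kcnq1*) had an RPKM of 14.3 or more in the CvP and of 4.53 or less in the Epi, as the tissue labels say. The table as a whole leaned towards the CvP, with a median CvP/Epi ratio of 1.31 (log2 0.39) over the 10363 rows with an RPKM of at least 1 in both libraries. This median changed with the level, from 2.44 in rows with a mean RPKM of 0.3 to 1 and 1.90 in rows of 1 to 3 down to 1.00 in rows of 30 to 100. The 6 members *Itga5*, *Itga9*, *Itgax*, *Itgb2*, *Itgb7* and *Itgb8* lie in the band of 0.3 to 1. Each ratio carries a 95% exact (Clopper-Pearson) interval computed from estimated reads, which covers counting error only and not the variation between mice or dissections.

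Of the 38 genes, 23 reached 1 RPKM in either library, 16 integrins and 7 laminins. Of these 23 genes, 22 were higher in the CvP and 1, *Itga2*, was higher in the Epi, and no interval of the 23 included 1. Most rows of the whole table had the same direction. Of the 12549 rows past this filter, 10363 reached 1 RPKM in both libraries, and 7829 of those were higher in the CvP. Another 1976 passed through the CvP value alone and 210 through the Epi value alone. In bulk tissue fewer cells of a type and less RNA per cell cannot be told apart. A CvP/Epi ratio of at least 2 was found for 18 of the 23 (78.3%), against 28.3% of all rows past the same filter. None had a ratio of 0.5 or less, against 3.76% of all rows. The filter was passed through the CvP value alone by 8 of the 23 genes and through the Epi value alone by 1, *Itga2*. The 8 were *Itga5*, *Itga9*, *Itgam*, *Itgax*, *Itgb2*, *Itgb7*, *Itgb8* and *Lamb1*, and the filter set the direction of these genes and of *Itga2*. The 14 genes at 1 RPKM or more in both libraries are thus the more even comparison. Among these 14, all were higher in the CvP, against 75.5% of all rows with an RPKM of at least 1 in both. Of the 14, 10 had a ratio of at least 2 (71.4%), against 17.3% of those rows. The median log2 ratio (pseudocount 0.1) was 1.71 for the 16 integrins and 1.29 for the 7 laminins, against 0.50 for all rows past the filter. Over the 14 genes at 1 RPKM or more in both libraries, where the filter does not favour the CvP, the median log2 ratio (no pseudocount) was 1.21 for the 8 integrins and 1.24 for the 6 laminins, against 0.39 for all such rows. After division by the median ratio of rows in the same band of mean RPKM (pseudocount 0.1), 21 of the 23 remained above 1, the exceptions being *Itga2* and *Itga2b*. The band medians were taken over rows without the filter. The 21 include the 8 genes that passed through the CvP value alone, for which the filter favours a value above 1. The median log2 ratio of all rows past the filter was then 0.03.

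**Figure D1:**
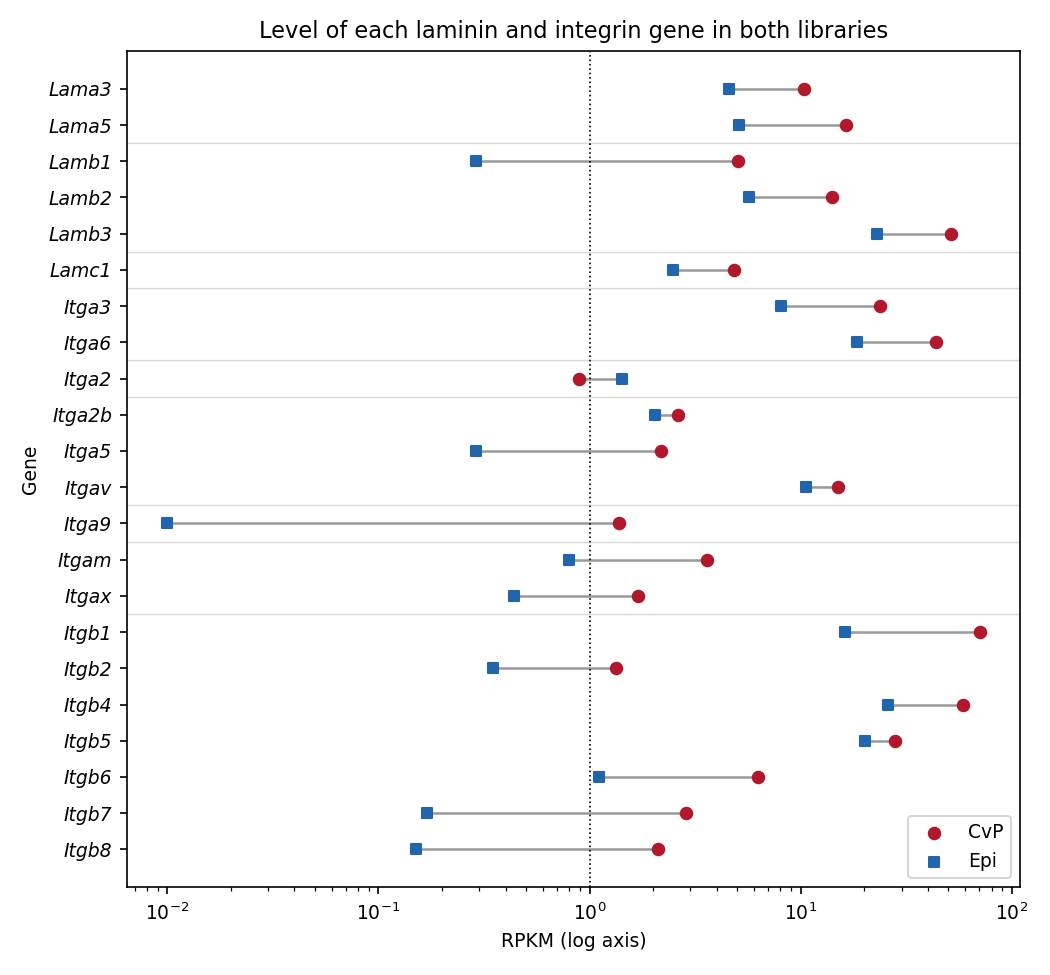
RPKM (log axis) of 22 of the 23 laminin and integrin genes that reached 1 RPKM in either library, in the CvP (red circles) and the Epi (blue squares), 1 pooled library each, with the dotted line at an RPKM of 1. The CvP point lies to the right of the Epi point in every row but that of *Itga2*, and the widest gaps are those of *Itga9* and *Lamb1*.

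With the limits that the study set for candidate genes, over 10 RPKM in the CvP and over 3 times the Epi value, 2 of the 38 genes passed (5.26%), against 2.35% of all rows. They were *Itgb1*, the shared β subunit of the largest integrin group, and *Lama5*, an α chain of epithelial basement membranes. *Itga3* (ratio 2.95) lay just under the ratio limit, and 9 further members that reached 1 RPKM passed the ratio but not the level, with *Itgb6* (6.29) and *Lamb1* (5.06) nearest to it. With the CvP limit at 3 RPKM, 5 members passed, against 6.05% of all rows.

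The start regions of 4 genes are shown, those of *Itgb1* and *Lama5*, which met both criteria, and of *Lamb1* and *Itga9*, which had the highest ratios among the laminins and the integrins that reached 1 RPKM. They are from RefSeq on GRCm38.p6, run from 250 bases before to 50 bases after a listed transcript start, and are written along the gene. The *Itga9* region begins at 118711442, while the gene begins at 118515827 on NCBI37/mm9. For *Lamb2* on the same chromosome these positions are 108479612 and 108382193, a much smaller shift. The listed *Itga9* start may thus lie inside the gene. Capitals mark a GC box (GGGCGG) or an AP-1 site (TGANTCA) on either strand.
*Itgb1* (chr8:128685404-128685703, plus strand): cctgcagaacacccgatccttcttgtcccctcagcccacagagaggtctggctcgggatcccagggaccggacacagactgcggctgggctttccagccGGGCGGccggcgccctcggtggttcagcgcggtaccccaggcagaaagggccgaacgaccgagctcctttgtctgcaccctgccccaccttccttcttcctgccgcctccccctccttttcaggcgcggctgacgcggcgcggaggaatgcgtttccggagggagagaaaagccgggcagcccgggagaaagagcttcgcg
*Lama5* (chr2:180225810-180226109, minus strand): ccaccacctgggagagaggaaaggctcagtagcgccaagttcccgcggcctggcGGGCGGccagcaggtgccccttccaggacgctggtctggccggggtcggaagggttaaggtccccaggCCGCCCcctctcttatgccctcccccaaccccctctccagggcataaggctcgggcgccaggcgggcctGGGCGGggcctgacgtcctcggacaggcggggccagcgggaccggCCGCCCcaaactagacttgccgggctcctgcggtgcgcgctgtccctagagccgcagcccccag
*Lamb1* (chr12:31265043-31265342, plus strand): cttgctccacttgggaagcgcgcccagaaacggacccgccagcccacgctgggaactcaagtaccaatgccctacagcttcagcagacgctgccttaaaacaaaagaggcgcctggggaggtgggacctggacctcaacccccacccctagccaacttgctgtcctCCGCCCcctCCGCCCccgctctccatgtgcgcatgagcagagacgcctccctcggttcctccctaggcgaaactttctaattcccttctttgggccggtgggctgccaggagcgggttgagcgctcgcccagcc
*Itga9* (chr9:118711442-118711741, plus strand): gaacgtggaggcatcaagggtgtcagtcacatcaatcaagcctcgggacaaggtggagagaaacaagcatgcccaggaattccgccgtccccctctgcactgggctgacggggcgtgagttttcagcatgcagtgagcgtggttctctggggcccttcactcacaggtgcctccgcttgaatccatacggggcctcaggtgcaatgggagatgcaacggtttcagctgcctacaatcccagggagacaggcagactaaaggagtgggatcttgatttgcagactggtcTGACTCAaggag

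The *Itgb1* region held 1 GC box, that of *Lama5* 4 and that of *Lamb1* 2. The *Itga9* region held no GC box and 1 AP-1 site after its listed start. Start regions from RefSeq were matched for 24 of the 38 genes, with 27 regions in all. Of these 27 regions, 12 had a GC box (44.4%), against 35.7% of 32851 mouse start regions, and 3 had an AP-1 site (11.1%, those of *Itga9*, *Itgax* and 1 of the pair of *Itga3* regions), against 7.81%. None had the letters TATAAA, against 13.6% of all regions. These are matches of letters in a window and say nothing of binding. Not matched here were, among others, *Itga6*, *Itga7*, *Itgad*, *Itgae*, *Itgal*, *Itgb2*, *Itgb3*, *Itgb4*, *Lama1*, *Lama3*, *Lama4*, *Lamc1* and *Lamc3*.

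The α3 and β3 chains of the hemidesmosomal laminin were present in both tissues and each was over 2 times higher in the CvP. *Lamb3* (chromosome 1, 195128188 to 195170072 on NCBI37/mm9, plus strand) was the highest laminin gene in both libraries, with an RPKM of 51.6 in the CvP against 22.9 in the Epi, or 2.25-fold (95% interval 2.15 to 2.36). *Lama3* (chromosome 18, 12492533 to 12741521), the α chain that the receptor binds, had 10.4 and 4.58, or 2.27-fold (2.13 to 2.42). The ratios of *Lama3* and *Lamb3* had overlapping intervals.

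Within each library these chains were not at equal RPKM. The level of *Lamb3* was 4.96 times that of *Lama3* in the CvP and 4.996 times in the Epi. These quotients within a library do not depend on the scaling between libraries, but they do depend on the gene length. The table lists *Lamb3* at 12.4 kb, 3.04 times its longest coding transcript in GENCODE M1 (4.09 kb), while *Lama3* is listed at 1.02 times. If all reads lay on the shorter transcripts, *Lamb3* would stand at 14.7 times *Lama3* in the CvP and 14.8 times in the Epi, in the same order.

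*Lama5*, *Lamb1*, *Lamb2* and *Lamc1* encode chains that form the laminins of epithelial and vascular basement membranes. *Lama5* (chromosome 2, 179911078 to 179960564) had an RPKM of 16.4 in the CvP against 5.09 in the Epi, or 3.21-fold (3.04 to 3.40), the second highest among the 7 laminins. *Lamb2* (chromosome 9, 108382193 to 108392861), the β2 chain, had 14.0 and 5.70, or 2.46-fold (2.28 to 2.66). *Lamc1* (chromosome 1, 155066052 to 155179916), the γ chain of most laminins, had 4.84 and 2.49, or 1.94-fold (1.75 to 2.16), the lowest of the 7.

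*Lamb1*, which encodes the β1 chain, had the highest ratio of the 7 laminins that reached 1 RPKM. It did so through the CvP value alone. Its RPKM was 5.06 in the CvP against 0.29 in the Epi, about 830 and 47 reads, or 17.4-fold (12.9 to 23.8) on chromosome 12 from 31950159 to 32014504. Divided by the median ratio of rows of like mean RPKM it was 9.20, or 6.97 with a pseudocount of 0.1. In the CvP *Lamb1* stood at 1.05 times the level of its frequent partner *Lamc1*, and in the Epi *Lamc1* stood at 8.59 times *Lamb1*. Both are listed at the length of their transcripts. *Lamb2* was 2.90 times *Lamc1* in the CvP and 2.29 times in the Epi. *Lamb2* was thus above *Lamb1* in both libraries, by a far wider margin in the Epi.

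**Figure D2:**
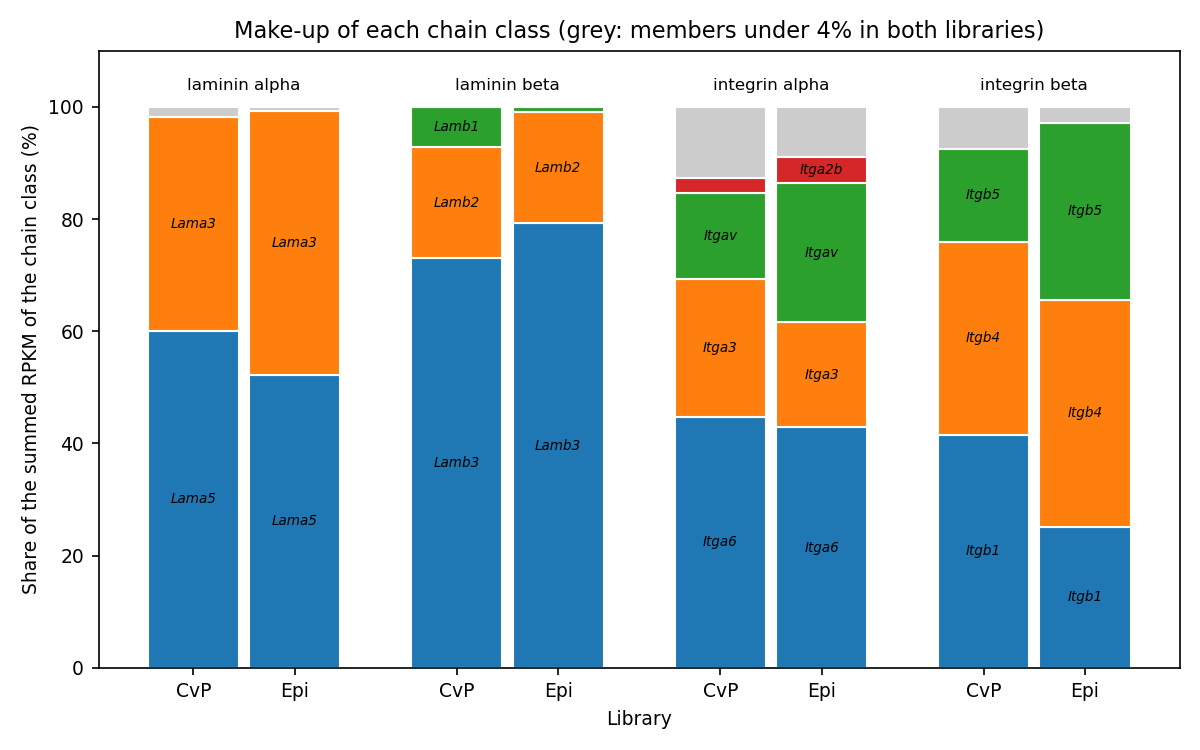
Share of the summed RPKM of the laminin α and β and integrin α and β classes (per cent) taken by each gene, in the CvP and the Epi, with members under 4% in both libraries in grey. *Itgb1* takes 41.5% of the integrin β sum in the CvP and 25.2% in the Epi (28.4% and 14.9% on transcript lengths), and *Lamb1* 7.16% and 1.00% of the laminin β sum.

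Another 4 laminin genes were under an RPKM of 1 in both libraries. *Lama1*, an α chain of embryonic basement membranes, had an RPKM of 0.25 in the CvP, about 68 reads, and none in the Epi. The lower limit of its exact interval was 17.6-fold higher in the CvP. With the Epi set at a floor of 3 reads the ratio was 22.3, which is not a lower limit. *Lama4*, a chain of vascular laminin, had 0.21 and 0.06. *Lama2*, the α chain of muscle and nerve, had about 3 and 5 reads, and no difference was detectable at this depth. *Lamc3* went the other way, at 0.17 in the CvP against 0.49 in the Epi, a ratio of 0.347 (0.215 to 0.535).

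The laminin receptor genes *Itga6*, *Itgb4*, *Itga3* and *Itgb1* were higher in the CvP, as were *Lama3*, *Lamb3* and *Lama5*. *Itga6* and *Itgb4* encode the subunits of the hemidesmosomal receptor. *Itgb4* (chromosome 11, 115836039 to 115869725) had an RPKM of 58.4 in the CvP against 25.9 in the Epi, or 2.25-fold (2.17 to 2.33), and *Itga6* (chromosome 2, 71625140 to 71694815) had 43.4 and 18.4, or 2.37-fold (2.25 to 2.49). Their intervals overlap, and *Itga6* stood at 0.744 times *Itgb4* in the CvP and 0.708 times in the Epi. The ratio of *Itgb4* thus differed from that of *Lamb3* by less than the counting error of either. An antisense non-coding gene, *B230344G16Rik*, covers 7.66% of the *Itgb4* exon bases, and as the counting was not stated to use strand its reads could be mixed with those of *Itgb4*.

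*Itgb1* was the highest integrin gene by RPKM in the CvP and number 4 in the Epi. It lies on chromosome 8 from 131209554 to 131257479, and had an RPKM of 70.3 in the CvP against 16.1 in the Epi, or 4.36-fold (4.14 to 4.60) from about 7612 and 1717 reads. In the Epi, *Itgb4* (25.9), *Itgb5* (20.2) and *Itga6* (18.4) were above it. The first place in the CvP depends on the listed lengths, since *Itgb4* is listed at 2.24 times its longest coding transcript and *Itgb1* at 1.22 times. On transcript lengths *Itgb4* would stand above *Itgb1* in both libraries, at 131 and 86.0 in the CvP. The CvP/Epi ratios do not depend on this length. Among all rows *Itgb1* was number 639 in the CvP against 2910 in the Epi, whereas *Itgb4* was number 814 and 1883. Of the 14 genes at an RPKM of at least 1 in both libraries, only *Itgb6* had a higher ratio. *Itga3* (chromosome 11, 94905796 to 94938028), the α subunit of the laminin receptor α3β1, had 23.8 and 8.08, or 2.95-fold (2.75 to 3.16). *Itgb1* was thus 2.95 times *Itga3* in the CvP and 1.996 times in the Epi, or 1.60 and 1.08 times on the length of the transcripts. Of the summed RPKM of the 18 α subunits, *Itga6* held 44.7% in the CvP and 42.9% in the Epi, *Itga3* 24.5% and 18.9%, and *Itgav* 15.4% and 24.6%. On transcript lengths the shares of *Itga3* were 34.2% and 27.3% and those of *Itgav* 10.3% and 17.0%, in the same directions. The third laminin-binding α subunit, *Itga7*, known from muscle, had about 2 reads from the CvP and 11 from the Epi. Skeletal muscle markers had the same direction, with 5 of 6 at 1 RPKM or more and all 5 at least 2-fold lower in the CvP (summed RPKM 2.73 against 40.9), and their part in the *Itga7* value was not tested.

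**Figure D3:**
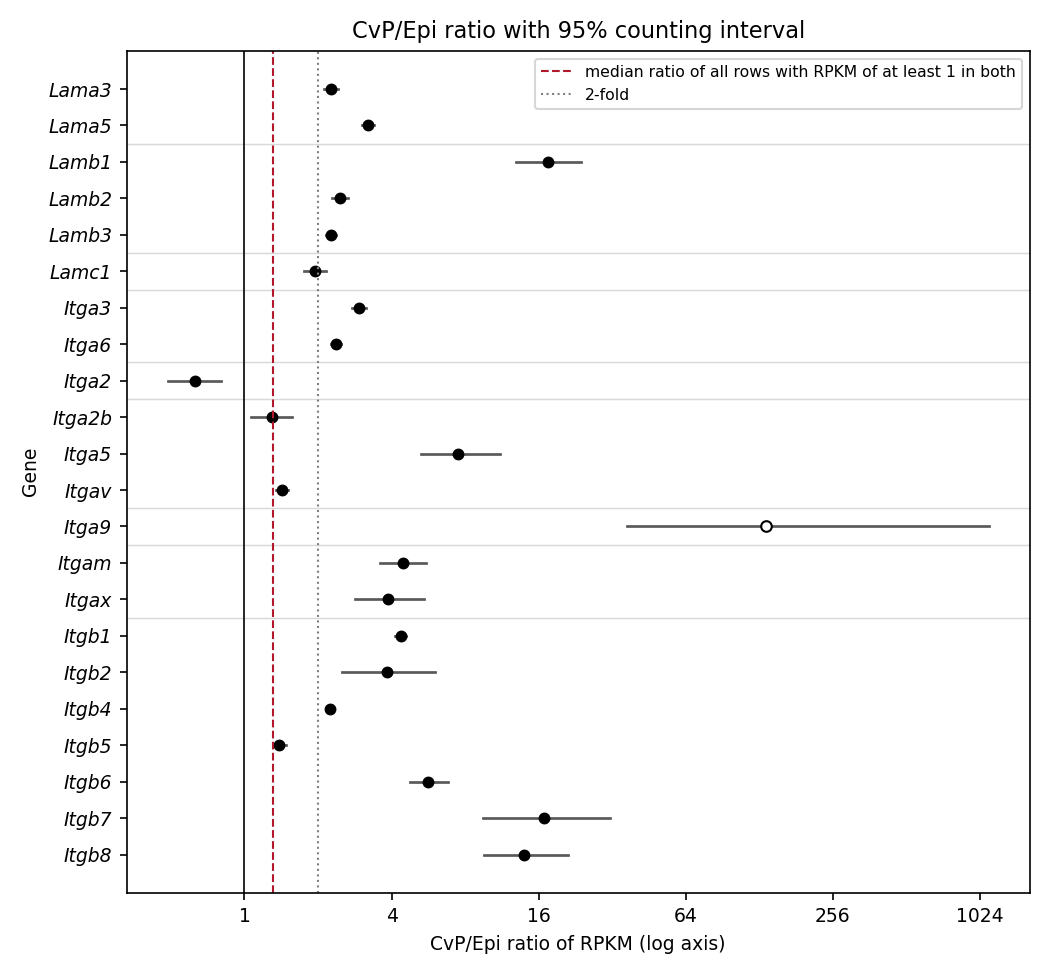
CvP/Epi ratio of RPKM (log axis) of 22 of the 23 genes with 95% exact intervals from estimated reads, with lines at 1, at 2-fold and at the median ratio of all rows (1.31). The open circle marks *Itga9*, with about 2 reads in the Epi. *Itga2* lies below 1, *Itga2b*, *Itgav* and *Itgb5* lie close to the median line, and the other 18 lie above it.

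The collagen-binding α subunits were low in both tissues. *Itga2*, the α subunit of the collagen receptor α2β1 of keratinocytes and platelets, had an RPKM of 0.89 in the CvP against 1.42 in the Epi, about 106 and 167 reads, a ratio of 0.627 (0.485 to 0.801). It was the only 1 of the 23 genes that was higher in the Epi. *Itga1*, which lies 26.04 kb from *Itga2* on chromosome 13, had 0.07 in each library. *Itga10* was under an RPKM of 1 in both. *Itga11*, a fibroblast collagen receptor, had about 1 and 10 reads.

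The integrins that bind RGD-containing proteins were divided. *Itgav* (chromosome 2, 83564554 to 83647073) had an RPKM of 15.0 in the CvP against 10.5 in the Epi, or 1.42-fold (1.34 to 1.502), and its epithelial partner *Itgb5* (chromosome 16, 33829751 to 33949424) had 28.04 and 20.2, or 1.39-fold (1.31 to 1.48). Both ratios were near the median of all rows, and their intervals overlap. The partners *Itgb6* and *Itgb8*, whose αv pairs activate latent TGF-β, were much higher in the CvP, but *Itgb8* passed 1 RPKM through the CvP value alone. *Itgb6* (chromosome 2, 60436349 to 60560660), an epithelial subunit, had 6.29 and 1.11, or 5.67-fold (4.75 to 6.79). *Itgb8* (chromosome 12, 120401276 to 120476749) had 2.10 and 0.15, about 413 and 29 reads, or 14.0-fold (9.61 to 21.2). Divided by the median ratio of rows of like mean RPKM it was 5.75, or 3.61 with a pseudocount of 0.1. The level of *Itgav* was 2.38 times that of *Itgb6* in the CvP and 9.50 times in the Epi, and 7.12 and 70.3 times that of *Itgb8*. *Itgb3*, a further αv partner, had about 10 reads in the CvP against 11 in the Epi.

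*Itga5*, the α subunit of the fibronectin receptor α5β1, had an RPKM of 2.17 in the CvP against 0.29 in the Epi, or 7.48-fold (5.30 to 11.1). It passed 1 RPKM through the CvP value alone. Divided by the median ratio of rows of like mean RPKM it was 3.07, or 2.39 with a pseudocount of 0.1. *Itga2b*, the platelet subunit αIIb, had 2.62 and 2.03, or 1.29-fold (1.07 to 1.56). This ratio lay above 1 as deposited but was 0.983 when divided by the median ratio of all rows. *Itga9*, whose pair with β1 binds tenascin-C among other ligands, reached 1.37 RPKM in the CvP against 0.01 in the Epi. The Epi value is about 2 reads, and the ratio of 137 had an interval from 36.8 to 1114. It was 13.4 with a pseudocount of 0.1 and 2.35 with a pseudocount of 1, so its size is poorly set. Its relative *Itga4*, a leukocyte subunit, had 0.12 and 0.03, and *Itga8* had about 2 reads in all, so no fold was calculated for it.

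The leukocyte integrins were low in both libraries. The 4 that passed an RPKM of 1 did so through the CvP value alone, so that their direction was set by the filter. *Itgam* and *Itgax*, α subunits of macrophages, neutrophils and dendritic cells, had an RPKM of 3.58 and 1.70 in the CvP and of 0.80 and 0.44 in the Epi, ratios of 4.47 (3.60 to 5.56) and 3.86 (2.83 to 5.44). Their β subunit *Itgb2* had 1.34 and 0.35, or 3.83-fold (2.51 to 6.03), and the intervals of the 3 genes overlap. Divided by the median ratio of rows of like mean RPKM, *Itgam* was at 2.36, *Itgax* at 1.59 and *Itgb2* at 1.57. With a pseudocount of 0.1 these were 2.15, 1.37 and 1.31. *Itgb7*, the β subunit of lymphocyte receptors, had 2.87 and 0.17, about 218 and 13 reads, or 16.9-fold (9.45 to 31.5). After the same division it was at 6.93, or 4.52 with a pseudocount of 0.1. *Itgae*, whose pair with *Itgb7* binds E-cadherin on epithelial cells, had 0.89 and 0.09, or 9.89-fold (4.97 to 20.5), and *Itgal*, the α subunit of LFA-1, had 0.61 and 0.06. *Itgb7* stood at 3.22 times *Itgae* in the CvP and 1.89 times in the Epi.

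*Itgam*, *Itgax* and *Itgad* form a cluster on chromosome 7, in which *Itgax* and *Itgad* share 240 identical stretches of 75 bases, 6.04% of the *Itgax* transcript. *Itgad* had about 2 and 1 reads and *Itgb2l*, which shares no such stretch with *Itgb2*, about 4 and 0. Of the 8 leukocyte markers examined, 6 had an RPKM of at least 1 and each had a ratio of at least 2 (28.3% of all rows), among them *Cd68* (10.8 and 4.45), *Laptm5* (6.34 and 1.15) and *C1qa* (5.79 and 0.43). Of the 6, *C1qa*, *Csf1r* and *Ptprc* passed 1 RPKM through the CvP value alone, so that the filter set their direction. The 8 markers summed to 33.1 RPKM in the CvP against 8.91 in the Epi, and the T cell marker *Cd3e* was at 0.15 and 0. Their part in the difference of the leukocyte integrins was not tested.

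**Figure D4:**
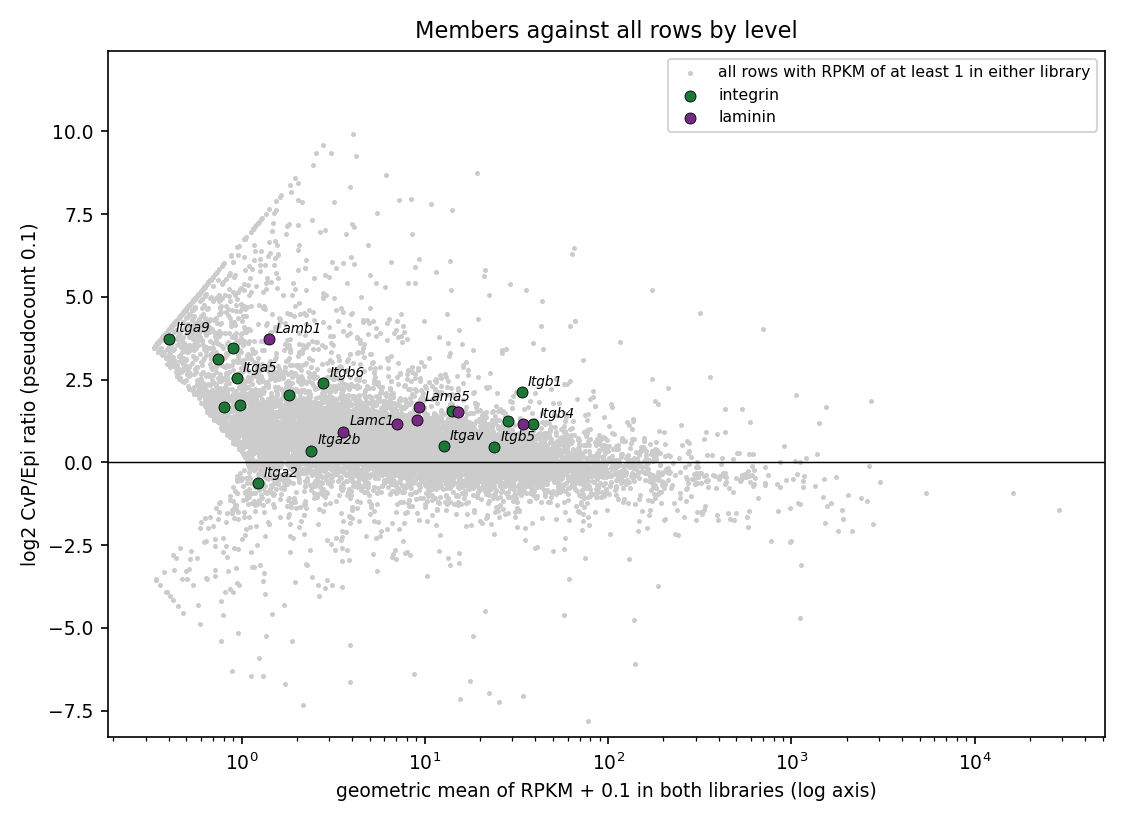
Log2 CvP/Epi ratio (pseudocount 0.1) against the geometric mean of RPKM + 0.1 (log axis) for all rows that reached 1 RPKM in either library (grey), with integrins in green and laminins in purple and some of them named. *Itgb1* lies 2.11 above the median log2 ratio of rows of its level, *Itgav* and *Itgb5* lie 0.23 and 0.20 above theirs, and *Itga9* lies where the filter lets through only rows far from a ratio of 1.

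Of the hemidesmosome partners, *Cd151* had a ratio whose interval overlaps that of *Itga6* and lies above that of *Itgb4*, and the other 5 had lower ratios than both. Of 6 listed partners, 1 had a ratio of at least 2 (28.3% of all rows), 1 a ratio of 0.5 or less (3.76% of all rows) and 4 between, with a median log2 ratio of 0.45. *Cd151*, a tetraspanin bound to laminin-binding integrins, had an RPKM of 52.5 in the CvP against 20.8 in the Epi, or 2.52-fold (2.35 to 2.71). *Col17a1*, the transmembrane collagen of hemidesmosomes, had 154 and 98.5, or 1.56-fold (1.53 to 1.60), and the linker proteins *Plec* and *Dst* had ratios of 1.68 and 1.15. The keratin gene *Krt5* had 1506 and 1271 and its partner *Krt14* 295 and 1140, ratios of 1.19 and 0.259. The 4 basal keratinocyte markers (*Krt5*, *Krt14*, *Krt15* and *Trp63*) summed to an RPKM of 2360 in the CvP against 3228 in the Epi, and their ratios ran from 0.259 for *Krt14* to 1.85 for *Trp63*. Of the 4 suprabasal markers (*Krt13*, *Krt4*, *Krt6b* and *Rptn*) 3 were at least 2-fold lower in the CvP, with ratios from 0.237 to 0.527 over the 4. The part of the balance of basal and suprabasal cells in the integrin and laminin ratios was not tested.

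Of 16 basement membrane partners 8 reached 1 RPKM in either library, with 4 at a ratio of 2 or more (28.3% of all rows), 1 at 0.5 or less (3.76% of all rows) and a median log2 ratio of 0.92, against 0.50 for all rows. Of the 4, *Hspg2* and *Col4a6* passed through the CvP value alone, so that the filter set their direction. *Dag1*, the precursor of dystroglycan, a laminin receptor that is not an integrin, had an RPKM of 33.0 in the CvP against 12.6 in the Epi, or 2.63-fold (2.48 to 2.78). *Agrn*, a heparan sulphate proteoglycan that binds laminin, had 32.7 and 13.5, or 2.43-fold (2.32 to 2.54), and *Hspg2*, which encodes perlecan, had 3.92 and 0.81, or 4.84-fold (4.28 to 5.47). Of the collagen IV chains, *Col4a6* had 1.98 and 0.95 and *Col4a5* 3.20 and 1.72, and *Col18a1*, a further basement membrane collagen, had 2.06 and 1.90. *Col7a1*, the collagen of anchoring fibrils, had 10.2 and 6.32, and *Frem2*, a matrix protein of the epithelial basement membrane, went the other way at 1.01 and 2.28. The collagen IV chains *Col4a1* and *Col4a2* and the nidogens *Nid1* and *Nid2* were at 0.19 or less in both libraries. The fibroblast markers *Col1a1*, *Col1a2* and *Col3a1* were at 0.25 or less, while *Dcn* was at 26.1 and 128 and *Pdgfra* went the other way at 1.3 and 0.07. Of the endothelial markers, *Cdh5*, *Kdr*, *Pecam1* and *Tie1* were at 0.28 or less in both libraries, while *Vwf* (4.45 and 0.09) and *Tek* (2.49 and 0.07) were higher in the CvP. The part of vascular and stromal cells in the laminin values was not tested.

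Among 15 genes for other integrin ligands and matrix proteins, 8 passed an RPKM of 1, of which 5 had a ratio of at least 2 (28.3% of all rows) and 1 a ratio of 0.5 or less (3.76% of all rows). Of the 5, *Tnc*, *Ctgf*, *Thbs1* and *Npnt* passed through the CvP value alone, so that the filter set their direction. *Cdh1*, the gene of E-cadherin, had the highest level, 154 in the CvP against 92.1 in the Epi, or 1.68-fold (1.64 to 1.72). *Tnc*, the gene of tenascin-C, had 37.7 and 0.86, or 43.9-fold (37.6 to 51.2), and *Ctgf*, a matricellular ligand, had 33.9 and 0.36, or 94.3-fold (63.6 to 148). Outside the 3 highest, *Fn1*, which encodes fibronectin, was under 1 in both libraries, at 0.89 and 0.24. *Fn1* and *Thbs1* (thrombospondin 1) were singled out after their values were seen, and *Thbs1* had 13.4 and 0.27.

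Genes for the adaptors inside the cell were mostly higher in the CvP as well. Of 22 listed, 18 had an RPKM of at least 1 and 17 of these were higher in the CvP, 10 of them at least 2-fold (28.3% of all rows), with a median log2 ratio of 1.13. Of all rows at 1 RPKM or more in both libraries, a stricter filter than that of these 18, 75.5% were higher in the CvP. *Parva*, which encodes α-parvin, had 22.0 in the CvP against 4.55 in the Epi, or 4.83-fold (4.47 to 5.24), with an interval that overlaps that of *Itgb1*. Its partner *Ilk*, integrin-linked kinase, had 21.1 and 10.6, or 1.99-fold (1.79 to 2.21), and *Vcl*, which encodes vinculin, 29.1 and 24.2, or 1.21-fold (1.15 to 1.26). The kindlins, which switch integrins on together with talin, were singled out after their values were seen. *Fermt1*, the epithelial kindlin, had 9.28 and 4.10, and *Fermt2*, which passed 1 RPKM through the CvP value alone, had 2.77 and 0.22. *Fermt3*, known from blood cells, was the only adaptor of the 18 that was lower in the CvP, at 8.71 and 10.7.

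**Figure D5:**
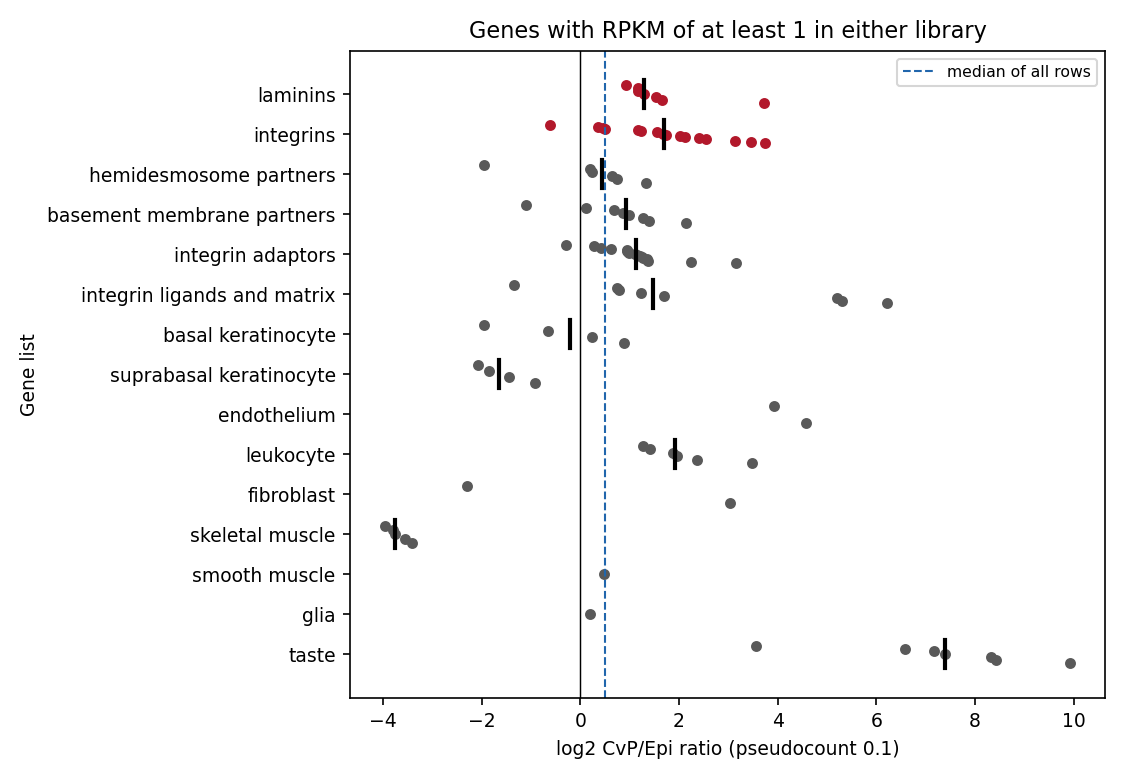
Log2 CvP/Epi ratio (pseudocount 0.1) of the genes that reached 1 RPKM in either library, 1 point a gene, for laminins and integrins (red) and the other lists (grey), with a black bar at the median of lists of 3 or more genes and a dashed line at the median of all rows (0.50). The medians of laminins (1.29), integrins (1.71) and adaptors (1.13) lie to the right of the line, and the suprabasal keratinocyte and skeletal muscle genes lie to the left of 0.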

How the data were processed

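Total RNA of the CvP and of the Epi, pooled from at least 20 mice each, was made into 1 poly(A) library per tissue. Per the submitters' processing notes and methods, the authors aligned 75-bp single-end reads to NCBI37/mm9 with Bowtie 0.12.7 and deposited an RPKM per gene from ERANGE beside a gene length, which is longer than any coding transcript for some genes; ERANGE's options, the treatment of multiply mapped reads and strand are not given in the sources used here. The authors' column of CvP over Epi quotients, their own comparison, was not used. The depth was read from the step between RPKM values in 163 rows of 0.1 kb, in which 1 read was worth 0.352 in the CvP against 0.358 in the Epi. In rows of up to 0.5 kb, 96.4% and 97.4% of low values came within 0.1 of a whole number of reads. Approximate reads of a gene were the RPKM times the depth times a length in kb, for which the longest coding transcript in GENCODE M1 was taken where the listed length exceeded it. Ratios were taken without a pseudocount, with 95% exact (Clopper-Pearson) intervals. Medians were taken on the log2(RPKM + 0.1) scale, on which changes of low genes come out too small. No test was possible with 1 library per tissue. All members with an RPKM of at least 1 are named with values except 1 gene, which is counted but not reported here, the hemidesmosome and basement membrane partners as available, and of other lists the 3 highest genes, with exceptions stated. The members and lists were chosen with earlier results of these data known. Calculations used Python 3.11.15, numpy 2.4.6, pandas 2.3.3, scipy 1.17.1 and matplotlib 3.10.9, and the depth and interval steps were tested on simulated data.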

Additional observations from a re-analysis of the deposited data

How the results depend on the processing

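No paired analysis was possible because there is a single library from each tissue, which also leaves no replicate to leave out. The genes at least 2-fold higher in the CvP were 18 of 23 as reported (28.3% of all rows) and between 12 and 25 under most alternatives. The 12 were of 15 genes with an RPKM of at least 3 (22.0% of all rows), and the 25 of 38 with no filter (38.3%). They were 11 of 23 at a minimum fold of 3 (16.0% of all rows). In an alternative chosen after seeing the data, they were 10 of 14 with an RPKM of at least 1 in both libraries (17.3%). Dividing ratios by the median of all rows, or of rows of like mean RPKM, left 13 of 23 in each case (18.9% and 14.7% of all rows). The genes at least 2-fold lower were 0 as reported (3.76% of all rows) and 5 with no filter on low RPKM (7.08%), all under an RPKM of 1. There was 1 with division by the median of all rows (6.94%) or of rows of like mean RPKM (6.68%). There was also 1 with RPKM rescaled to the same sum (2.89%) and with a minimum fold of 1.5 (7.24%). The genes meeting both criteria were 2 of 38 as reported (2.35% of all rows). They were 11 with the CvP limit lowered to 1 RPKM (10.8%) and 5 with it at 3 (6.05%). There were 9 at a minimum ratio of 2 (4.66%) and 7 after rescaling to the same sum (7.47%). With a pseudocount of 1 (2.11%) or division by the median of all rows (1.85%), 1 remained. The median log2 ratio of the integrins, 1.71, was 1.21 with a pseudocount of 1, 1.39 with an RPKM of at least 3, 1.17 with no filter, 1.31 divided by the median of all rows, 1.14 divided by that of rows of like mean RPKM and 2.12 rescaled to the same sum. That of the laminins, 1.29, was 1.17 with a pseudocount of 1 and with no filter, 0.89 divided by the median of all rows, 1.09 divided by that of rows of like mean RPKM and 1.504 rescaled. All of these stayed above 0, as did the medians of all rows. Those were 0.42 with a pseudocount of 1, 0.42 with an RPKM of at least 3 and 0.49 with no filter. They were 0.11 divided by the median of all rows, 0.03 divided by that of rows of like mean RPKM and 0.84 rescaled. Of the 23 single ratios, 15 left their counting interval with a pseudocount of 1, among them *Lamb1* (from 17.4 to 4.70), *Itgb7* (16.9 to 3.31), *Itgb8* (14.0 to 2.70) and *Itga9* (137 to 2.35), and 18 did so, besides *Itga2b*, when divided by the median of rows of like mean RPKM. Only *Itga2b* changed direction, to 0.983 and 0.680 under the 2 divisions. The Epi quotient of *Lama5* over *Lamb2*, 0.893, turned to 1.01 on transcript lengths. Intervals cover counting error only, and at the low Epi counts of *Itga9*, *Itgb7* and *Itgb8* they are wide.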

Other observations

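Genes whose names resemble those of the integrins but which encode other proteins lay outside the rule. *Itgb1bp1*, an adaptor that binds the β1 tail, had 4.52 RPKM in the CvP against 2.92 in the Epi, *Itgb1bp2* had 0.30 and 0.41, and *Itgbl1* was at 0.78 in the CvP and listed at 0 in the Epi.

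Smooth muscle and glial markers differed little in sum, at 2.16 and 1.91 RPKM for 4 smooth muscle genes and 11.6 and 9.32 for 5 glial genes. Among the basement membrane genes, *Col4a4* was at 0.36 in the CvP and listed at 0 in the Epi, while its partner chain *Col4a3* was at 0.04 and 0.02.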
